A study of Arabidopsis thaliana with 25 samples.

Results

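The genes described here encode proteins of the small (40S) subunit of the cytosolic ribosome of Arabidopsis thaliana. They were given as a list of 54 locus identifiers, all of which matched an NCBI RefSeq gene table that holds 27444 protein-coding genes on the 5 nuclear chromosomes. Members lie on all 5 chromosomes, with 18 on chromosome 5, 14 on chromosome 3, 9 on chromosome 2, 7 on chromosome 1 and 6 on chromosome 4. The gene table names 12 of them as ribosomal proteins by symbol or synonym, XW6 and EMB1080 carry symbols that do not name a ribosomal protein, and members without a symbol are called by their locus identifier.

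The cytosolic ribosome reads mRNA with its small subunit and joins amino acids with its large subunit. In plants each ribosomal protein is usually encoded by several paralogous genes, and together these genes are among the most highly transcribed by RNA polymerase II (RNAPII) in growing tissue. Elongating RNAPII is accompanied by SPT5, which binds it as part of the SPT4-SPT5 complex, by the PAF1 complex, whose plant PAF1 subunit is ELF7, and by the histone chaperone FACT, made of SSRP1 and SPT16, which handles nucleosomes in the path of the polymerase. Phosphorylation of the RNAPII carboxy-terminal domain at serine 5 (S5P) is typical of early transcription and at serine 2 (S2P) of productive elongation.

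Chromatin immunoprecipitation and sequencing (ChIP-seq) was done on whole seedlings of the Col-0 ecotype, with antibodies against SPT5, ELF7, SSRP1 or SPT16 (4 samples each), S2P or S5P RNAPII (2 each) and 5 inputs without antibody. All 25 samples carry the same description of growth, with 16 h of light at 21 °C and 8 h of darkness at 18 °C, and of a heat step at 44 °C for 10 min, but no sample label says which, if any, was heated. The sources used here give no seedling age. The values analysed are 8 lists of peak summits, 1 for each factor named as over 1 RNAPII form, with 298 summits for SPT5 over S2P, 2916 for SPT5 over S5P, 2687 for ELF7 over S2P, 693 for ELF7 over S5P, 5451 for SSRP1 over S2P, 4199 for SSRP1 over S5P, 6578 for SPT16 over S2P and 7394 for SPT16 over S5P. "Over" is read as the RNAPII form having served as the control, which the files do not state, so that a summit marks a place where the factor exceeded that form rather than the factor's occupancy alone. Single libraries cannot be read from the lists. Values therefore come without replicate error or depth, and no test was made. Lists of 1 factor share that factor's libraries, and lists over 1 form are read as sharing its RNAPII libraries.

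A gene was counted for a list when a summit stood inside it or within 500 bp of it. By this measure small subunit genes were marked most often by SPT16 and SPT5 over S5P and by FACT over S2P. They were seldom marked by ELF7 over S5P or SPT5 over S2P. SPT16 over S5P is also the longest list, and ELF7 over S5P and SPT5 over S2P are the shortest. SPT16 over S5P had summits at 39 of the 54 genes (72.2%), against 24.2% of all protein-coding genes. SPT16 over S2P reached 33 genes (61.1%), against 21.0%. For SSRP1 the count was 30 genes over S2P (55.6%, against 19.1%) and 21 over S5P (38.9%, against 14.4%). SPT5 over S5P marked 31 genes (57.4%), against 15.6%. ELF7 marked 16 genes over S2P (29.6%, against 8.54%) and 3 over S5P (5.56%, against 2.08%). SPT5 over S2P, the shortest list, marked 5 genes (9.26%, against 1.05%).

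Members are 989 to 2263 bp long, with a median of 1674 bp against 2078 bp for all protein-coding genes. The 11047 genes within that range of lengths, a comparison chosen after the data were seen, had summits in 13.5% of cases for SPT5 over S5P, 20.7% for SSRP1 over S2P and 23.9% for SPT16 over S5P, values close to those of all genes.

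**Figure D1:**
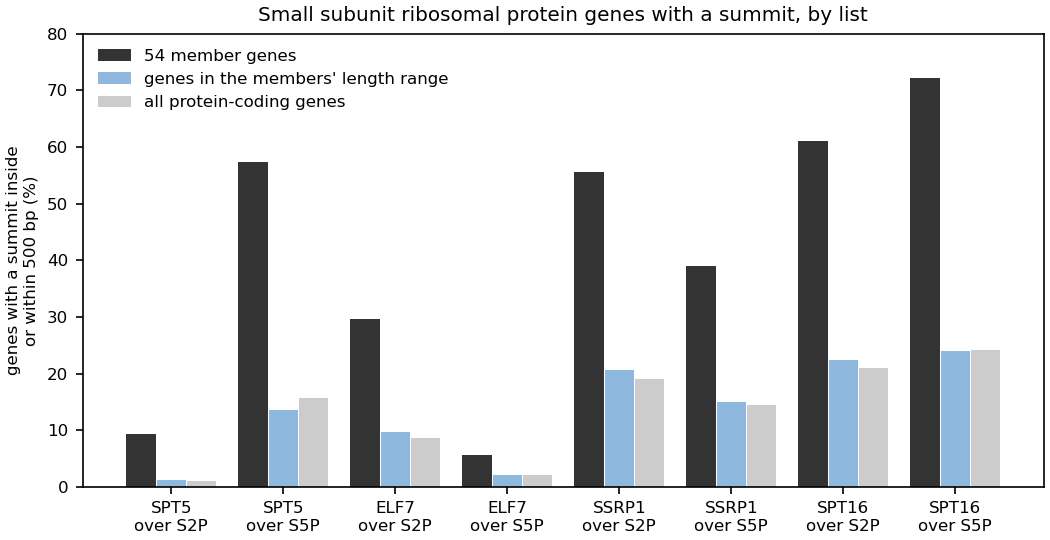
Share of genes with a summit inside or within 500 bp (vertical axis, %) in each of the 8 summit lists (horizontal axis), for the 54 small subunit genes (dark), the 11047 protein-coding genes in the same range of lengths (blue) and all 27444 protein-coding genes (grey). The dark bar is the tallest in each list, from 5.56% for ELF7 over S5P to 72.2% for SPT16 over S5P.

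With summits inside the gene alone, the order of the lists changed for SPT5. SPT5 over S5P then marked 14 members (25.9%), against 6.13% of all genes, and 32 members remained for SPT16 over S5P (59.3%, against 17.3%). SPT16 over S2P marked 32 (59.3%, against 18.9%), SSRP1 28 over S2P (51.9%, against 17.4%) and 17 over S5P (31.5%, against 12.3%). The 16 members for ELF7 over S2P (against 8.15%), the 3 for ELF7 over S5P (against 1.92%) and the 5 for SPT5 over S2P (against 0.838%) were the same number as with the flanks.

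The genes differed widely in how many lists they appeared in. Of the 54 genes, 47 had a summit in at least 1 list and 26 in 4 or more (48.1%, against 13.4% of all genes). The 9 genes in 6 or more lists (16.7%, against 3.05%) were P40 (AT1G72370), AT5G15200 and AT5G18380, in 7 lists each, and RPS5A (AT3G11940), RPS6 (AT4G31700), EMB3010 (AT5G10360), AT5G20290, AT4G25740 and AT2G09990, in 6 lists each. None was in all 8 lists, against 0.204% of all genes. The 7 genes with no summit in any list (13.0%, against 63.2%) were AT5G59240, AT5G39850, AT4G30800, AT3G52580, AT3G04230, AT3G10610 and AT5G15520. Their median length was 1566 bp, and that of the 26 genes in 4 or more lists was 1684 bp. A place without a summit says only that no peak was called there, since depth is unknown.

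**Figure D2:**
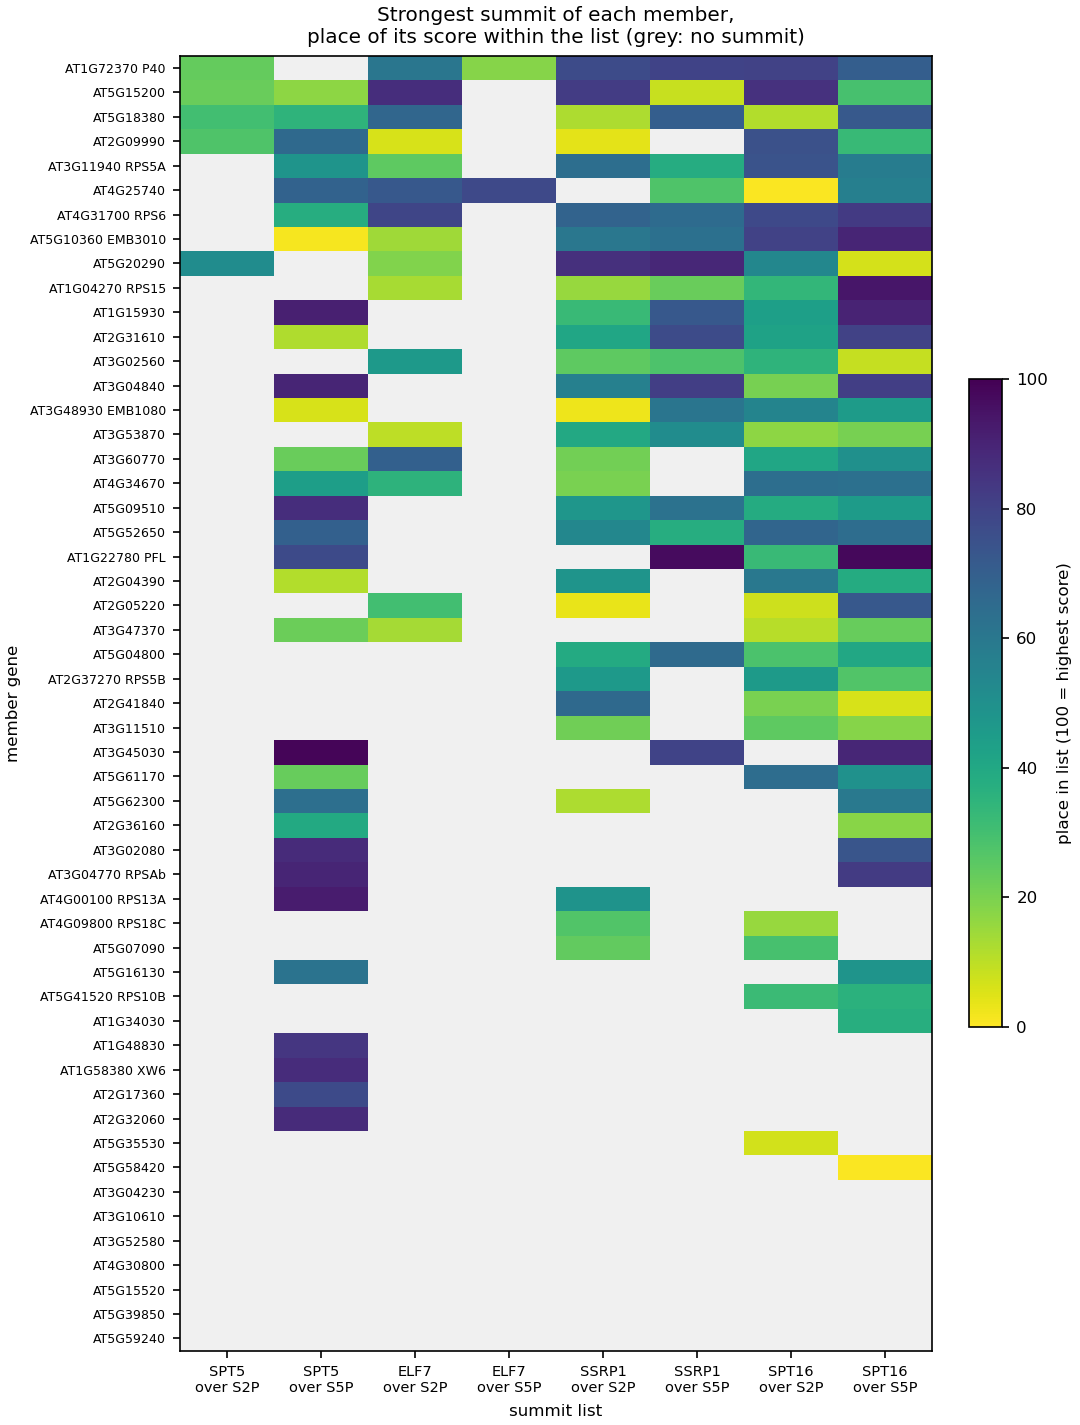
Strongest summit of each of 53 members (rows, ordered by the number of lists) in each of the 8 lists (columns). Colour gives the place of its score within the list in percent, with 100 for the highest score of the list, and grey means no summit; the bottom 7 rows are grey throughout and 3 genes at the top have summits in 7 lists.

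The score of a summit is the authors' own −log10 of the peak caller's q-value and was read within a list only. Scores at small subunit genes were moderate. In the FACT lists over S2P they ran lower than at other marked genes: the median of the members' strongest scores was 5.64 for SSRP1 over S2P against 7.18 over all marked protein-coding genes, and 4.79 against 6.64 for SPT16 over S2P. For ELF7 over S2P the medians were 3.52 and 4.67, and for SPT16 over S5P 4.69 and 5.24. For the 5 members in SPT5 over S2P they were 2.78 and 3.67. SPT5 over S5P went the other way, with 5.36 against 4.69, as did SSRP1 over S5P, with 5.84 against 5.21, and ELF7 over S5P, with 5.52 against 4.17 and 3 members. The strongest score exceeded the median of its list at 9 of 30 members for SSRP1 over S2P, at 12 of 33 for SPT16 over S2P and at 18 of 31 for SPT5 over S5P. For SSRP1 and SPT16 over S5P this was so at 15 of 21 and 18 of 39 members. The counts were 6 of 16 for ELF7 over S2P, 2 of 3 for ELF7 over S5P and 1 of 5 for SPT5 over S2P. These counts set a gene's strongest summit against all single summits of the list. They were not made for all marked genes, so they cannot be called high or low.

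SPT5 over S5P stood at the ends of small subunit genes. The highest score was that of AT3G45030, at 11.4, rank 46 of the 2916 summits of that list, at position 16471300 of chromosome 3 (TAIR10, as are all positions here), 61 bp outside the gene. RPS13A (AT4G00100), whose mutant is known as pointed first leaf 2, scored 8.38 at position 36929 of chromosome 4, 13 bp inside the gene end. AT1G15930 followed with 8.01, 81 bp outside the gene. AT3G45030, RPS13A and AT1G15930 were in 3, 2 and 5 lists in all.

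The strongest SPT5 summit over S5P lay a median of 76 bp from the nearest gene end, against 84 bp over all marked genes, and from 3 bp at AT2G17360 to 451 bp at XW6 (AT1G58380). At 22 of the 31 members (71.0%) it was within 100 bp of an end, against 56.8% of all marked genes. Summits inside the gene and close to its end were those of AT2G17360 (3 bp, score 6.31), RPSAb (AT3G04770; 10 bp, score 7.7), AT1G48830 (15 bp, 6.97), RPS6 (16 bp, 4.06), AT5G16130 (16 bp, 5.28), AT4G25740 (25 bp, 5.65) and AT4G34670 (32 bp, 4.35). Those of RPSAb, AT1G48830 and AT5G16130 lay also inside the overlapping genes AT3G04780, AT1G48820 and AT5G16140. AT5G15200, AT2G31610 and EMB3010 had theirs 54, 55 and 72 bp inside, with scores of 3.05, 2.72 and 2.07. Of the 31 members, 26 had an SPT5 summit within 150 bp of an end (83.9%, against 72.7% of all genes marked in that list). Strongest summits more than 300 bp from an end were those of XW6, AT5G18380 and AT5G09510, and the last, of score 7.24, was 397 bp inside the gene.

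Besides AT3G45030 and AT1G15930 above, strongest summits outside the gene but within 100 bp were those of AT2G04390 and AT2G36160 (31 bp each), RPS5A (59 bp) and AT3G04840 (79 bp, score 7.66). AT5G52650 (80 bp), AT3G47370 (81 bp), AT3G60770 (88 bp) and AT5G61170 (92 bp) followed. Farther out were AT3G02080 (113 bp), PFL (AT1G22780; 115 bp), EMB1080 (AT3G48930; 118 bp) and AT2G09990 (155 bp). AT2G32060 (162 bp), AT5G62300 (231 bp) and AT5G18380 (301 bp) came next, short of XW6. The direction of transcription was not analysed here, since the gene table holds no strand.

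Neighbouring genes bear on these counts. The 31 members held 36 SPT5 summits over S5P, and at 25 of the 36 another protein-coding gene lay within 500 bp of the same gene end or overlapped it. For 11 summits another gene was nearer than the member. Among these, the strongest summits of PFL (AT1G22780), an S18 gene whose mutant has pointed first leaves, and of AT3G02080 lay inside the neighbouring genes AT1G22770, the clock gene GI, and AT3G02070. The strongest summits of XW6, EMB1080 and AT5G62300 likewise lay inside AT1G58390, AT3G48920 and AT5G62290. Those of RPS5A and AT2G32060 were nearer to AT3G11930 and AT2G32070. When a summit was counted only for the gene nearest to it, SPT5 over S5P kept 25 members, against 10.7% of all genes, and SPT16 over S5P 35, against 20.0%. The 5 members with a second SPT5 summit, AT1G15930, PFL, AT2G32060, AT3G04840 and RPS13A, had it at the opposite end, and in each of them at least 1 of the pair was nearer to another gene.

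FACT and ELF7 summits over S2P lay mostly in the interior, with 3 of 34 SSRP1 and 3 of 39 SPT16 summits outside the gene. The strongest summit was inside at 90% of marked members for SSRP1 and 90.9% for SPT16. These shares were close to the 90.6% and 89.1% of all marked genes. All 16 ELF7 summits over S2P were more than 300 bp inside the gene. Of all genes marked in that list, 92% had their strongest summit more than 300 bp from an end. The ELF7 median was 660 bp from the nearest end with a range of 429 to 868 bp, against a median of 731.5 bp over all marked genes. The median was 369 bp for SSRP1 over S2P (125 to 821 bp), against 453 bp, and 509 bp for SPT16 over S2P (132 to 1011 bp), against 476 bp. No strongest summit of ELF7, SSRP1 or SPT16 over S2P was within 100 bp of an end, against 1.49%, 1.51% and 3.14% of all marked genes. The 5 members of the SPT5 list over S2P had their summits 375 to 582 bp inside the gene, with scores of 3.65 at AT5G20290, 2.87 at AT5G18380, 2.78 at AT2G09990, 2.56 at P40 and 2.54 at AT5G15200, and 4 of these 5 scores were below the list median of 3.62. Of all genes marked in this SPT5 list, 78.8% had their strongest summit inside the gene.

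**Figure D3:**
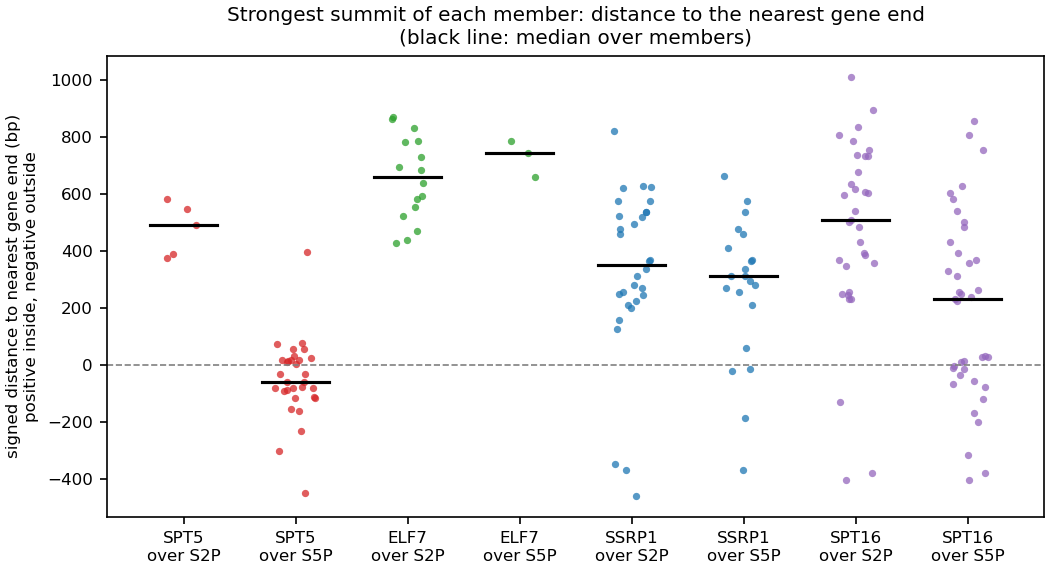
Signed distance (bp) from the strongest summit of each marked member to the nearest gene end, positive inside and negative outside the gene, for the 8 lists; each point is 1 gene and the black line is the median. SPT5 over S5P points crowd around 0, all ELF7 points lie more than 300 bp inside, and SPT16 over S5P forms a group around 0 and another inside the gene.

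SPT16 over S5P was spread over both places. Of its 39 members, 22 had a summit within 150 bp of a gene end (56.4%, against 39.5% of all genes marked in that list) and 28 one farther inside (71.8%, against 60.9%). Both kinds occurred in the same gene at 13 members (33.3%, against 14.0%). RPS5A is an example, with a score of 5.27 at 26 bp from one end and of 4.48 at 605 bp from the other. RPS6 had a summit of score 3.25 at 43 bp and one of 7.86 at 263 bp from the opposite end, and EMB3010 one of 4.95 just outside the gene, at 2 bp, and one of 9.16 at 432 bp. AT4G25740 had 3, with scores of 5.2 at 4 bp outside the gene and 3.87 and 4.23 inside. The highest SPT16 scores over S5P, 14.0 at PFL and 11.0 at RPS15 (AT1G04270), belonged to summits 170 and 318 bp outside these genes that lay inside the neighbours GI and AT1G04280. SSRP1 over S5P likewise had its highest score, 15, inside GI at 187 bp from PFL.

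SPT5 over S5P and the FACT and ELF7 lists over S2P, which have no library in common under the reading above, mostly marked opposite sides of the gene centre. The strongest SSRP1 summit over S2P was across the gene centre from the strongest SPT5 summit over S5P in 15 of the 18 members that had both, and in 84.5% of the 1078 protein-coding genes with both, with median gaps of 1215.5 bp and 1756.5 bp. With SPT16 over S2P this was so in 14 of 19 members and 75.4% of 1241 genes, and with ELF7 over S2P in 8 of 10 members and 64.3% of 471 genes. Such a layout was thus common among all genes marked in both lists. The 3 members with SSRP1 on the SPT5 side were RPS13A, AT5G18380 and AT2G09990. Of the 15 members with SSRP1 across the centre, AT2G04390 had its SSRP1 summit 460 bp outside it, inside AT2G04378 and AT2G04380. The SPT5 summits of EMB1080 and AT5G62300 lay inside neighbouring genes, and that of RPS5A was nearer to another gene. In the rest of the 15, both summits were nearest to the member.

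In RPS6, which encodes a protein known as a target of S6 kinase downstream of the growth regulator TOR, the SPT5 summit over S5P stood at position 15345995 of chromosome 4, 16 bp inside the gene. ELF7, SSRP1 and SPT16 over S2P had theirs at 15347166, 15347178 and 15347186, 1171 bp or more farther along and 618 to 638 bp from the other end. Their scores were 6.87, 9.5 and 10.3. EMB3010, the second S6 gene, repeated this layout: the SPT5 summit over S5P, of score 2.07, was 72 bp inside one end, while ELF7 (2.66), SSRP1 (7.99) and SPT16 (10.9) over S2P stood 594, 459 and 432 bp from the other.

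**Figure D4:**
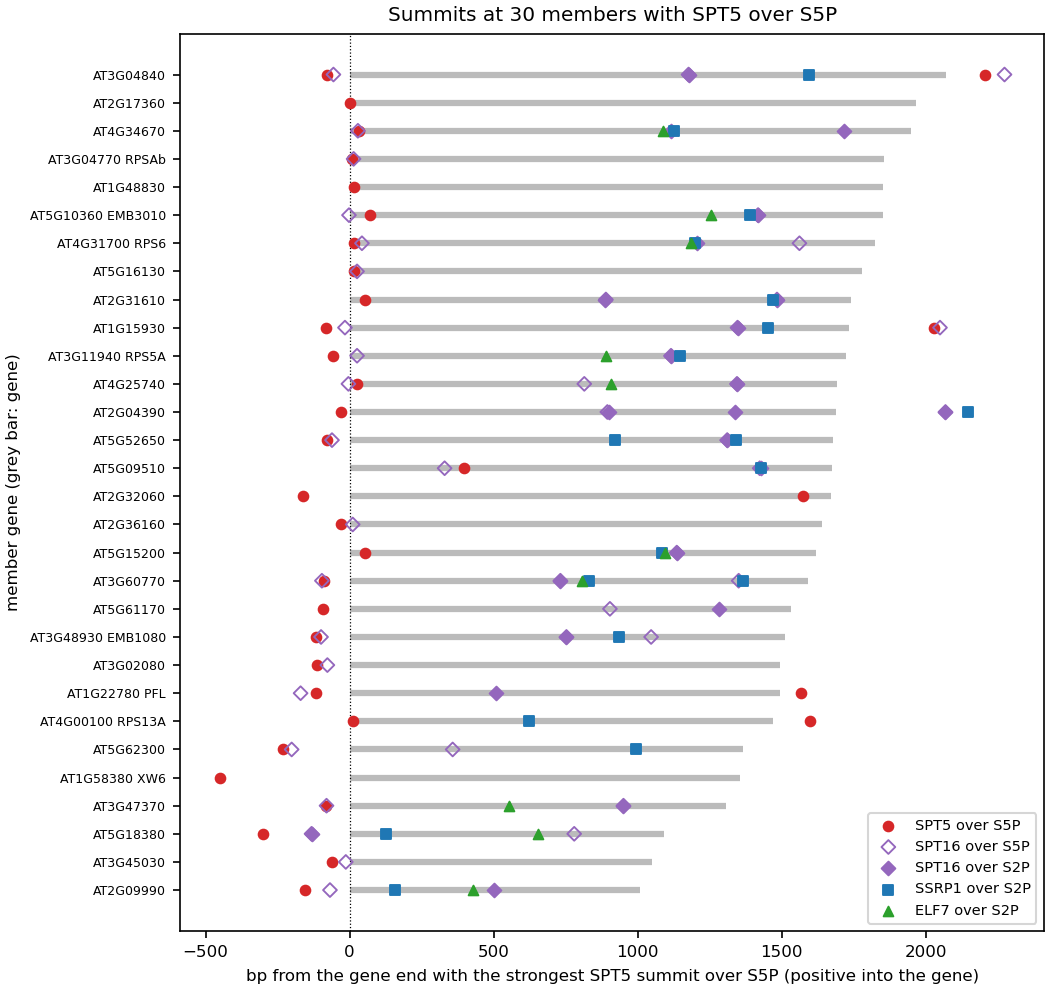
Summits at 30 members with SPT5 over S5P, 1 gene per row (grey bar), with positions in bp counted from the gene end nearest to the strongest SPT5 summit over S5P, so that the place of that summit at 0 is set by the drawing. SSRP1 and SPT16 over S2P have 16 of 19 and 18 of 23 summits beyond the gene centre, while SPT16 over S5P has 25 of 45 on the near side of it.

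The gene table names the protein for 4 pairs of members, which are all the paralogs compared here. The S6 pair was alike: RPS6 (1826 bp) and EMB3010 (1851 bp) were in the same 6 lists. The SA pair, genes for a protein of the small subunit also known as p40, differed most of these 4 pairs. Other paralogs among the members were not compared. P40 (2087 bp) was in 7 lists, with scores of 2.56 for SPT5, 4.97 for ELF7, 11.5 for SSRP1 and 10.9 for SPT16 over S2P and of 2.8 for ELF7, 7.67 for SSRP1 and 6.29 for SPT16 over S5P. RPSAb (1857 bp) was in 2 lists, SPT5 over S5P (7.7) and SPT16 over S5P (7.79), at 10 and 14 bp from 1 gene end. That end overlaps AT3G04780, in which both summits also lie, and P40 was in no SPT5 list over S5P. P40 thus had interior summits and RPSAb only end summits.

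RPS5A, required for normal cell division, and RPS5B (AT2G37270) shared 3 lists. RPS5A scored 8.67 for SSRP1 and 9.42 for SPT16 over S2P, and RPS5B 6.24 and 5.37 at 517 and 540 bp from an end. RPS5A was also marked by SPT5 over S5P (4.58), ELF7 over S2P (3.16) and SSRP1 over S5P (4.23). Its SPT5 summit lay 59 bp outside the gene and was nearer to AT3G11930. Of the S18 genes that the gene table names, PFL was in 4 lists and RPS18C (AT4G09800) in 2. The list they shared was SPT16 over S2P, at 4.36 and 3.22. That SPT16 summit, at 509 bp from an end, was the only summit inside PFL. Short reads from near-identical paralogs can be placed at either copy, and the sources used here do not say how such reads were treated.

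Among the members with the highest scores over S2P, AT5G15200 led ELF7 (8.47, rank 350 of 2687) and SPT16 (13.0, rank 928 of 6578) and came second for SSRP1 (13.2). Its SPT5, ELF7, SSRP1 and SPT16 summits over S2P stood at positions 4935938, 4935906, 4935894 and 4935946 of chromosome 5, within a stretch of 52 bp. These 4 lists are read as sharing S2P libraries. AT5G20290 had the highest SSRP1 score over S2P, 14.8 at rank 750 of 5451, and 9.55 over S5P at the same base, 256 bp from a gene end. Its SPT16 score over S2P was 6.21 at another place, 784 bp from the opposite end. AT4G25740 and P40 were in the ELF7 list over S5P, with scores of 5.52 and 2.8, and AT4G25740 had its ELF7 summit at the same base over both forms.

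Of the 31 members marked by SPT5 over S5P, 9 (29.0%) had no summit over S2P for any factor, against 68.3% of the 4292 protein-coding genes that SPT5 over S5P marked. They were RPSAb, XW6, AT2G17360, AT1G48830, AT5G16130, AT2G32060, AT2G36160, AT3G02080 and AT3G45030. The strongest SPT5 summits of XW6 and AT3G02080 lay inside neighbouring genes, and that of AT2G32060 was nearer to another gene. Those of RPSAb, AT1G48830 and AT5G16130 lay also inside an overlapping gene, so these summits cannot be assigned to the member alone. AT3G45030 is short, at 1049 bp, and its SSRP1 and SPT16 summits over S5P, of scores 7.68 and 9.06, stood 16 and 13 bp outside the same gene end as the SPT5 summit. AT3G02080 likewise had SPT16 over S5P at 6.66, 77 bp outside the gene, and AT2G36160 at 3.04, 11 bp inside. AT1G15930 combined both places: SPT5, SSRP1 and SPT16 over S5P, with scores of 8.01, 6.73 and 9.38, stood 81, 22 and 16 bp outside one end, while SSRP1 and SPT16 over S2P, with 4.9 and 5.23, stood 280 and 385 bp inside the other. These lists over S5P are read as sharing S5P libraries.

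The remaining members, named here after their values were seen, had no SPT5 summit. AT3G53870 and AT3G02560 were in 5 lists each, with ELF7 over S2P at 2.43 and 4.14 and SSRP1 over S2P at 5.56 and 4.35. AT5G04800 and AT2G05220 were in 4 lists, the first with 6.05 for SSRP1 over S5P and the second with 6.54 for SPT16 over S5P. In all 4 lists the strongest summit of AT5G04800 lay 368 to 404 bp outside it, inside the neighbour AT5G04810. The only summit inside AT5G04800 was one of SPT16 over S2P, of score 2.48. AT2G41840 had the highest score among the members of this paragraph, 8.97 for SSRP1 over S2P, and was in 3 lists, as was AT3G11510. AT5G07090 and RPS10B (AT5G41520) were in 2 lists, with SPT16 over S2P at 4.15 and 4.32. AT5G35530, AT5G58420 and AT1G34030 had 1 SPT16 summit list each, with scores of 2.59 over S2P and of 2.02 and 4.01 over S5P. The summit of AT5G58420 lay outside it and was nearer to AT5G58430.

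Of 38 further small subunit genes listed by locus identifier, 9 are named in the gene table as genes for S15A, S27 or S28 proteins or for RACK1, a scaffold protein on the small subunit. These genes are named here after their values were seen. SPT5 over S5P marked 4 of the 9, RPS15AD (AT3G46040; score 5.14), RPS28 (AT5G64140; 4.49), ATARCA (AT1G18080, the RACK1A gene; 3.89) and RACK1B_AT (AT1G48630; 4.35), at 19 to 130 bp from a gene end. SSRP1 over S2P also marked 4, led by RS27A (AT3G61110) with 9.98. These shares, 44.4% each, stand beside 15.6% and 19.1% of all genes. SPT16 marked 1 over S2P (11.1%, against 21.0%) and 2 over S5P (22.2%, against 24.2%), and SSRP1 over S5P marked 2 (22.2%, against 14.4%). SPT5 over S2P marked 1 (11.1%, against 1.05%). RS27A was in 5 lists, while rps15ab (AT2G19720), rps15ae (AT4G29430) and RACK1C_AT (AT3G18130) were in none. ELF7 marked none of the 9 over either form, against 8.54% of all genes over S2P and 2.08% over S5P.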

How the data were processed

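The 8 deposited lists give 1-base summits with a score, which the authors deposited as the −log10 of the peak caller's q-value; the lowest over all lists is 2, that is q = 0.01. The submitters' processing notes name MACS3, deepTools, Bowtie2, Trimmomatic 0.39, SAMtools 1.16.1 and the build TAIR10. MACS3 settings, pooling of libraries and the control: not given in the sources used here. Summit names, such as a factor's peaks over S2P, give the list's factor and form.

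Summits, counted from 1, were assigned with Python 3.11.15, pandas 2.3.3 and NumPy 2.4.6 to protein-coding genes of the RefSeq table (assembly TAIR10.1; no coordinate of it is printed) when inside or within 500 bp. A summit near several genes counted for each. The strongest summit per gene gave its score and distance. Assignment was checked on simulated summits.

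Members and lists were chosen with earlier results of these data known. Named genes are members in 6 or more lists or in none, the 3 highest scores per list and all members with SPT5. Paralogs 4 or more lists apart were also named, among the pairs that the gene table names. RPS5B, the members without SPT5 in 1 to 5 lists and the further small subunit genes were named after their values were seen. Counts stand beside those of all genes, without tests. The values of 1 member enter the counts and are not reported here one by one.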

Additional observations from a re-analysis of the deposited data

How the results depend on the processing

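Windows of 0, 250 and 1000 bp, scores of at least 3 or 5, the nearest gene only and all summits in place of the strongest were tried. Of 115 recomputed values, 101 stayed within 1.5 times the main count or within the 95% order-statistic interval of the main median. For SPT5 over S2P and ELF7 over S5P, with 5 and 3 members, too few values exist for a 95% interval. Their full range was used instead. Inside genes only, SPT5 over S5P fell from 31 to 14 members, its median distance from 76 to 28.5 bp, and genes in no list rose from 7 to 11. At scores of at least 3, ELF7 over S2P kept 10 of 16 members (18.5% of all members, against 6.97% of all genes). SPT5 over S2P kept 1 of 5 (1.85%, against 0.700%), and members in 6 or more lists fell from 9 to 2. For all genes, the numbers in no list or in 6 or more lists were not recomputed under any alternative. At scores of at least 5 the counts were 18 members for SPT5 over S5P (33.3%, against 6.94% of all genes), 17 for SSRP1 over S2P (31.5%, 13.6%), 15 for SPT16 over S2P (27.8%, 14.0%), 18 for SPT16 over S5P (33.3%, 12.9%), 5 for ELF7 over S2P (9.26%, 3.85%) and 0 for SPT5 over S2P (0.266%), with 17 genes in no list and 0 in 6 or more; a higher threshold removes summits by construction. Coincidence counts between lists over 1 form were computed and are not given, since these lists are read as sharing libraries, and their alternatives were not run. Protein families, protein identity, positions from the 5′ end, promoter motifs and large subunit genes were not run either, since the gene table has neither strand nor sequence and names few of these proteins. No paired analysis was possible because the lists carry no column per library, and for the same reason no library could be left out.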
